A study of Mus musculus with 24 samples.

Results

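The type VI collagen and pericellular matrix genes were followed in cartilage explants of the mouse that had been held under hydrostatic pressure. Members were chosen by symbol, as the chains of collagen VI (Col6a1, Col6a2, Col6a3, Col6a5, Col6a6), perlecan (Hspg2), the nidogens (Nid1, Nid2) and the common chains of collagen IV (Col4a1, Col4a2), and all 10 symbols were found among the 52178 genes of the count table. Each of the 10 members passed the filter on low counts, which left 21283 genes.

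The samples were hip caps, the cartilage of the femoral head of male C57/BL6 mice aged 4 weeks, and metatarsals, whole bone rudiments of E15 embryos of that strain. A hip cap sample held the 2 caps of a mouse and a metatarsal sample held 6 rudiments, and the sex of the embryos was not known. The labels name the strain C57/BL6 and the methods of the study C57/BL6J. Hip caps were kept in DMEM with GlutaMAX, and metatarsals in α-MEM with albumin, β-glycerophosphate and ascorbic acid phosphate. After 24 h of culture the explants received 1 h of pressure at 5 or 50 MPa, or none in the controls (0 MPa), and RNA was taken 24 h later. Tissue therefore differs from metatarsal to hip cap together with age, joint, culture medium, the number of explants pooled and, where embryos were female, sex, and these cannot be told apart. The labels write the pressure as mPa and the study's methods as MPa, and MPa is used here. The series held 24 libraries, 4 in each of 6 groups, with 4185241 to 25104240 counts each.

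A hip cap control library (replicate 4) and a hip cap library at 50 MPa (replicate 2) stood apart from their groups and were kept out of the fit. They are the libraries that the study set aside. Their summed level of 8 chondrocyte markers was 8634 and 13471 CPM (counts scaled to a common library size with TMM factors), against 47337 to 75389 CPM in the other hip cap controls and 30958 to 35922 CPM in the other hip caps at 50 MPa. The fit therefore held 22 libraries, with 3 hip cap controls, 4 hip caps at 5 MPa, 3 hip caps at 50 MPa and 4 metatarsal samples at each pressure. All 8 chondrocyte markers had counts in every library, but their summed level in the metatarsals of the fit was 1911 to 5041 CPM, below every hip cap library. The metatarsals carried in addition skeletal muscle markers (406 to 2376 CPM summed over 8 genes, against 8.97 to 43.8 CPM in the hip caps of the fit) and more fibroblast and perichondrium markers (5858 to 9328 CPM over 7 genes, against 1283 to 9377 CPM, where 1 hip cap library at 5 MPa sets the upper end). The 5 osteoblast markers were on the contrary higher in hip caps (3377 to 5193 against 106 to 302 CPM). Bulk RNA cannot separate fewer cells of a type from less RNA per cell, and this holds for every level given here.

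Around each chondrocyte lies a thin pericellular shell that passes load from the territorial matrix to the cell. Collagen VI is its hallmark. The chains encoded by Col6a1 and Col6a2 assemble with a long chain, usually that of Col6a3, into a monomer, and monomers join into beaded microfilaments in the extracellular space. The chains of Col6a5 and Col6a6 can take the place of the Col6a3 chain in some tissues. Perlecan, a large heparan sulphate proteoglycan, shares the shell and binds growth factors there, while nidogens and collagen IV, best known from basement membranes, are found in the pericellular matrix of cartilage as well as around vessels, muscle fibres and nerves.

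Levels between genes were compared as CPM per kilobase of the longest coding transcript. In the hip cap controls Col6a1 came first with 241 ± 60.4 CPM per kilobase (SD, n = 3), followed by Col6a2 (193 ± 72.3), Hspg2 (161 ± 37.1) and Col6a3 (125 ± 32.4), and none of these neighbours in the order lay apart by more than their SDs. No such overlap joined Col6a3 to the next genes, and a wide step led down to Nid2 (21.3 ± 3.11), Col4a2 (18.5 ± 5.27) and Col4a1 (14.2 ± 5.24), which again overlapped, and to Nid1 (4.00 ± 0.362). Col6a6 (0.0308 ± 0.0126) and Col6a5 (0.0286 ± 0.0261) were at the limit of detection. Under pressure Col6a1 and Col6a2 kept the first places in hip caps. At 50 MPa Col4a1 (29.2 ± 5.21, n = 3) lay above Nid2 (13.3 ± 3.54) by more than their SDs. At 5 MPa the same genes (24.3 ± 17.8 and 17.5 ± 2.30, n = 4) did not lie apart, and the Col4a1 mean there was set by replicate 3, at 335 CPM against 81.7 to 121 CPM in the other libraries.

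The metatarsal controls kept collagen VI at the top in another order, with Col6a1 at 124.5 ± 16.2 CPM per kilobase (SD, n = 4), Col6a3 at 113 ± 12.7 and Col6a2 at 94.96 ± 14.55, which did not lie apart by more than their SDs. Hspg2 followed at 52.8 ± 10.7, overlapping Col4a1 at 38.9 ± 4.53. Col4a2 (29.7 ± 3.92) and Nid1 (29.4 ± 2.17) lay together, above Nid2 (11.7 ± 2.05), Col6a6 (2.79 ± 0.852) and Col6a5 (0.0597 ± 0.0224). All members together took 0.164% to 0.507% of the counts of a hip cap library and 0.371% to 0.646% of those of a metatarsal library in the fit.

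**Figure D1:**
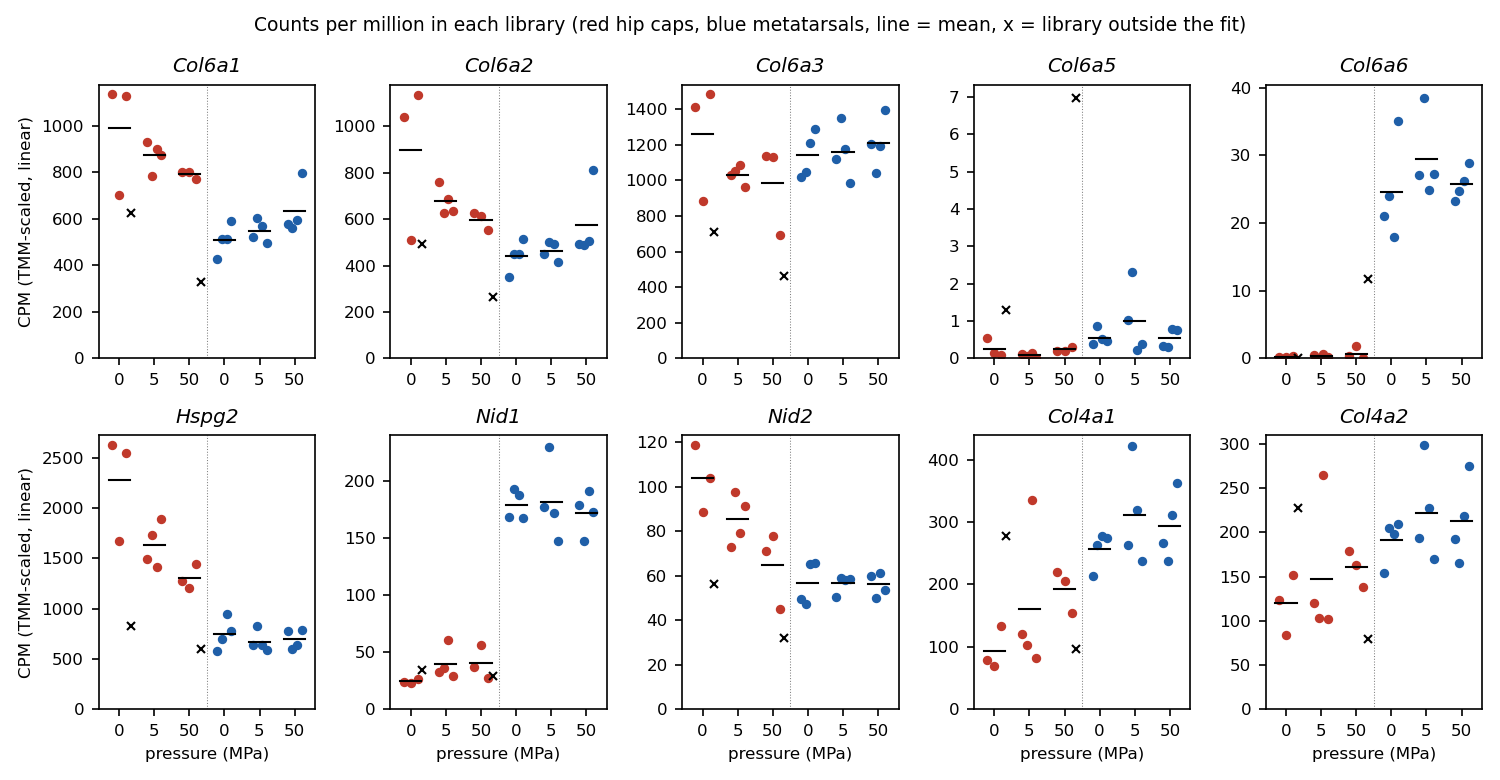
Level of each member in CPM scaled by TMM factors (vertical, linear axes that start at 0) against pressure in MPa (horizontal), with hip caps in red and metatarsals in blue. A point is a library of the fit, a line the group mean and a cross a library left out of the fit, and Nid1 is below 61 CPM in every hip cap and above 146 CPM in every metatarsal library.

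The first comparison was of hip caps with metatarsals at each pressure, which sets the RNA levels of pericellular matrix genes in explants of articular cartilage beside those in the growing rudiment. Without pressure 7 of the 10 members passed an adjusted p of 0.05 (edgeR quasi-likelihood test, Benjamini-Hochberg adjustment over 21283 genes), where 31.0% of all genes did. Col6a1, Col6a2, Hspg2 and Nid2 were higher in hip caps, and Col6a6, Nid1 and Col4a1 were lower. At 5 MPa 8 members passed against 38.1% of all genes, the same 7 in the same directions and Col6a5, lower in hip caps. At 50 MPa 3 passed against 20.4% of all genes, namely Hspg2, higher in hip caps, and Col6a6 and Nid1, lower. The median log2 fold change of the members was -0.29, -0.38 and -0.58 at the successive pressures, beside -0.08, -0.08 and -0.01 over all genes tested.

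Col6a1 and Col6a2 encode the short chains that every collagen VI monomer needs, and they are neighbours on chromosome 10. Without pressure Col6a1 stood at 1137, 703 and 1127 CPM in the 3 hip caps and at 428, 512, 511.5 and 591 CPM in the 4 metatarsal samples. At 5 MPa it was 931, 785, 901 and 876 CPM in hip caps against 522, 605, 567 and 494 CPM in metatarsals. The groups did not overlap at either pressure. The log2 fold change was 0.92 ± 0.20 (SE, adjusted p = 0.00162, edgeR) without pressure and 0.67 ± 0.14 (adjusted p = 0.000648) at 5 MPa. At 50 MPa Col6a1 lay at 803, 800.0 and 772 CPM in hip caps and at 579, 560.4, 597 and 799 CPM in metatarsals, where the fourth metatarsal library reached into the hip cap range. The log2 fold change was then 0.10 ± 0.20 (adjusted p = 0.794), with an interval of 2 SE from -0.31 to 0.51. Through the terms of the fit for sequencing run and library type, that metatarsal library takes a weight of -0.76 in this contrast for every gene. Each of the other metatarsals at 50 MPa takes -0.08, so the value compares hip caps mostly with 1 library.

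Col6a2 followed Col6a1 closely. Its control levels were 1041, 512 and 1137 CPM in hip caps and 351, 452, 449 and 515 CPM in metatarsals, so that the second hip cap library lay within the metatarsal range. At 5 MPa the hip caps (763, 627, 686 and 637 CPM) were all above the metatarsals (450, 501.7, 492 and 418 CPM). The log2 fold changes were 0.93 ± 0.24 (SE, adjusted p = 0.00529, edgeR) without pressure and 0.54 ± 0.16 (adjusted p = 0.0123) at 5 MPa. At 50 MPa the value was -0.31 ± 0.23 (adjusted p = 0.400), with hip caps at 627, 613 and 554 CPM and metatarsals at 494, 490.2, 506 and 814 CPM. Without hip cap control replicate 1 it came to -0.45 (adjusted p = 0.0460). Here too the metatarsal library at 814 CPM takes a weight of -0.76 in the contrast at 50 MPa.

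The calls for Col6a1, Col6a2 and Nid2 without pressure rest on a few libraries. The fit carries terms for sequencing run, read from the annotation strip of the study's clustering heat map, and for library type, from the labels. Through them metatarsal control replicate 1, the only metatarsal control of the first run, takes a weight of -0.64 in that contrast and each other metatarsal control -0.12. Without that library the log2 fold changes were 0.61 (adjusted p = 0.226) for Col6a1, 0.56 (adjusted p = 0.358) for Col6a2 and 0.91 (adjusted p = 0.130) for Nid2, and with all 24 libraries they were 0.67, 0.61 and 0.60, with adjusted p of 0.0864, 0.138 and 0.112. At 5 MPa all 8 libraries came from 1 run and 1 library type. Fitted alone, these 8 gave log2 fold changes of 0.72 ± 0.12 for Col6a1 (SE, adjusted p = 0.000778, edgeR) and 0.59 ± 0.12 for Col6a2 (adjusted p = 0.00253). With all 24 libraries in 1 fit the calls at 5 MPa were lost for Col6a1 (0.67, adjusted p = 0.0501), Col6a2 (0.54, adjusted p = 0.137) and Nid2 (0.59, adjusted p = 0.0701).

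Col6a3 encodes the long chain. It did not pass at any pressure with TMM factors, with log2 fold changes of 0.13 ± 0.24, -0.17 ± 0.17 and -0.47 ± 0.25 (SE, adjusted p = 0.718, 0.467 and 0.204, edgeR) at 0, 5 and 50 MPa. Over the 22 libraries its level ran from 695 to 1487 CPM in hip caps and from 985 to 1396 CPM in metatarsals, and the groups overlapped at each pressure. The intervals of 2 SE, from -0.34 to 0.60 without pressure and from -0.50 to 0.17 at 5 MPa, leave out a log2 fold change of 1 in either direction.

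The balance between the long and the short chain was therefore read as a ratio within each library, which no scaling of libraries can change. The ratio of Col6a3 to Col6a1 counts ran from 0.901 to 1.42 in the hip caps of the fit and from 1.75 to 2.38 in the metatarsals, so the tissues did not overlap. On the log2 scale it was lower in hip caps by a mean difference of -0.77 (exact two-sided permutation of the tissue labels within each pressure, 85750 arrangements, p = 1.17e-05, the smallest these arrangements give, adjusted p = 1.555e-05 over the 4 ratios tested). The libraries at 5 MPa alone gave -0.83 (exact p = 0.0286, the smallest that 70 arrangements give). Col6a2 and Col6a1 differed little in balance. Their ratio was 0.718 to 1.01 in hip caps and 0.820 to 1.02 in metatarsals, a log2 difference of -0.12 (exact p = 0.0387, adjusted p = 0.0387). That call was lost in 8 of the 22 analyses that each left out 1 library, with values of -0.15 to -0.08 over all 22, the weakest of them (-0.08, adjusted p = 0.179) without hip cap control replicate 2.

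**Figure D2:**
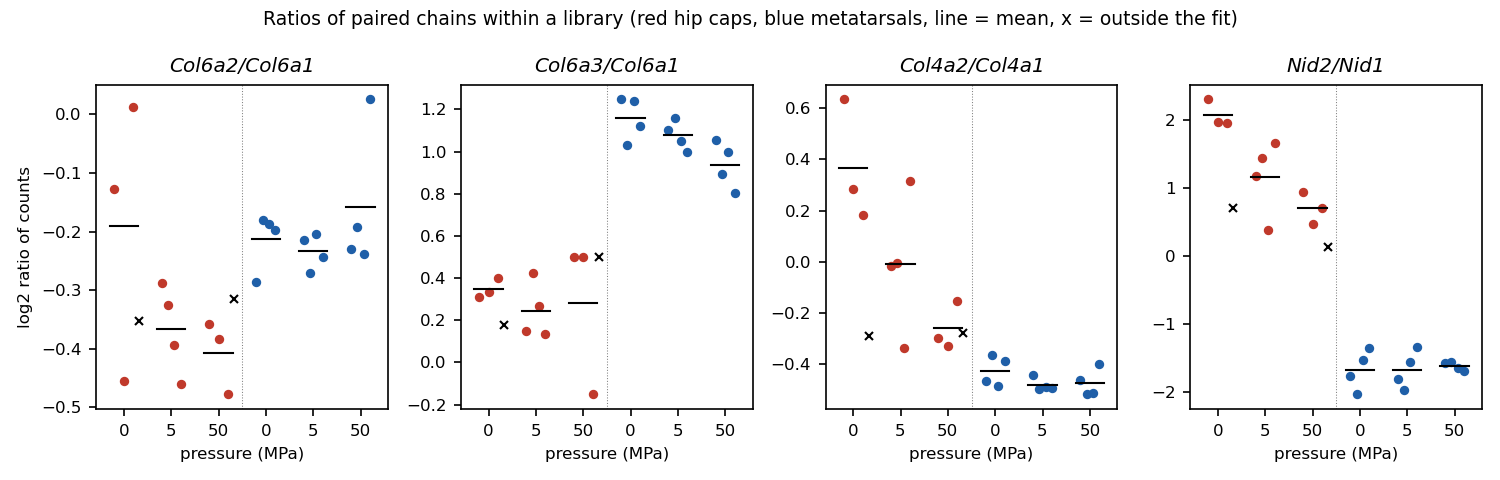
Log2 ratio of the counts of paired chains (vertical) within each library against pressure in MPa (horizontal), with hip caps in red, metatarsals in blue, a line at the group mean and a cross for a library left out of the fit. For Col6a3/Col6a1, Col4a2/Col4a1 and Nid2/Nid1 the 10 hip cap libraries of the fit lie on 1 side of the 12 metatarsal libraries, and the gap is narrowest for Col4a2/Col4a1, between -0.34 in hip caps and -0.37 in metatarsals.

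The stretches upstream of the starts of the 3 major chains and of Col6a6 are shown because the first pair moves together from library to library while Col6a6 departs from them. Sequences are RefSeq windows on GRCm38.p6, written 5′ to 3′ on the minus strand that carries all 4 genes and ending before the first base of any annotated transcript of the gene. Capitals mark the GC box (GGGCGG or CCGCCC).
Col6a1: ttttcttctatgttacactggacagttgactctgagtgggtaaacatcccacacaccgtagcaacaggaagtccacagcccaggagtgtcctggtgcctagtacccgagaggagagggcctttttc
Col6a2: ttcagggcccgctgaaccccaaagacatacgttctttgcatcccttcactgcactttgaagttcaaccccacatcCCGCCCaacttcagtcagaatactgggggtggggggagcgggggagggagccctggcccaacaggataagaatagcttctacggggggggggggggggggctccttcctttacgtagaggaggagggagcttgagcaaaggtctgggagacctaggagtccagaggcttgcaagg
Col6a3: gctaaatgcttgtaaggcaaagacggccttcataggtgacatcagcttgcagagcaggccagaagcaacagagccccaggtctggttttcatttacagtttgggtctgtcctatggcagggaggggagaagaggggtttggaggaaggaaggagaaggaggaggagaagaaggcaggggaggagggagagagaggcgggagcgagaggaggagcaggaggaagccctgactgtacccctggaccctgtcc
Col6a6: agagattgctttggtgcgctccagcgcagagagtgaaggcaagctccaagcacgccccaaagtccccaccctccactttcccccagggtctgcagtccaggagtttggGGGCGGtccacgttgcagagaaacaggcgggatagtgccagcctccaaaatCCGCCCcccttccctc
They cover chr10:76726169-76726294 (Col6a1, 126 bases), chr10:76623631-76623880 (Col6a2, 250 bases), chr1:90843972-90844221 (Col6a3, 250 bases) and chr9:105828161-105828335 (Col6a6, 175 bases). Windows of 250 bases upstream of a RefSeq start were searched on both strands for the GC box, the CCAAT box (CCAAT), the TATA box (TATAAA) and the AP-1 site (TGACTCA), none of which contains another. Of the 9 members with a window, 6 held a GC box, against 32.7% of 32851 windows of all genes. For the CCAAT box the count was 3 of 9 (33.8% of windows), for the TATA box 0 of 9 (12.4%) and for the AP-1 site 1 of 9 (4.46%), that of Col6a1, in bases that GENCODE places within its transcripts and that are therefore not printed. Hspg2 held 5 matches to the GC box, more than any other member. A match is a description of letters only.

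Col6a6 was the member with the widest gap between tissues. Its counts were 1, 1 and 4 in the hip cap controls, 9, 2, 14 and 4 at 5 MPa, and 3, 27 and 0 at 50 MPa, where a count of 0 allows up to 3. In the metatarsal controls they were 110, 449, 314 and 455, and over all metatarsals 110 to 713. Every metatarsal library exceeded every hip cap library in CPM (17.95 to 38.6 against 0 to 1.87). The log2 fold changes were -6.44 ± 0.70, -6.15 ± 0.49 and -4.97 ± 0.61 (SE, adjusted p = 1.23e-06, 7.79e-09 and 7.17e-06, edgeR) at 0, 5 and 50 MPa. From the pooled counts the level in metatarsals was 83.3 times that in hip caps without pressure (95% exact binomial interval 38.2 to 227, counting error only). At 50 MPa the ratio was 23.2 (16.2 to 34.5), but 27 of the 30 hip cap counts there came from replicate 3, without which the log2 fold change was -6.99 (adjusted p = 8.99e-08, edgeR). Without metatarsal replicate 4 at that pressure the log2 fold change of -5.35 had an adjusted p of 0.0719. The hip cap library at 50 MPa that was left out of the fit held 77 counts (11.7 CPM) and stood far above the other hip caps.

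Col6a5, the neighbour of Col6a6 on chromosome 9, was scarce in both tissues. Hip caps of the fit had 0 to 3 counts and metatarsals 2 to 43, so single libraries are at the limit of detection. Pooled over libraries the level in metatarsals was 3.10 times that in hip caps without pressure (1.10 to 12.1), 11.5 times at 5 MPa (5.05 to 32.2) and 2.35 times at 50 MPa (0.978 to 6.84). Only the comparison at 5 MPa passed (log2 fold change -3.42 ± 0.70, SE, adjusted p = 0.000325, edgeR), with groups of 0 to 0.155 and 0.236 to 2.33 CPM that did not overlap. The hip cap libraries left out of the fit had 19 and 46 counts. The longest transcripts of Col6a5 and Col6a6 share 379 words of 30 bases, of 9260 and 8745 words, and reads from these stretches are divided between the 2 genes by estimation, so a part of the low counts of one may belong to the other. None of the other members shared such a word with another member or with Col6a4.

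Hspg2 was higher in hip caps at all 3 pressures. It stood at 2624, 1676 and 2544 CPM in hip cap controls and at 579, 696, 942 and 779 CPM in metatarsal controls. Hip caps lay at 1418 to 1896 CPM at 5 MPa and 1201 to 1442 CPM at 50 MPa, above the metatarsals (583 to 825 CPM and 602 to 789 CPM) at the same pressures, so the tissues did not overlap. The log2 fold changes were 1.72 ± 0.25, 1.29 ± 0.17 and 0.83 ± 0.25 (SE, adjusted p = 2.70e-05, 4.30e-06 and 0.0235, edgeR). At 50 MPa the call was lost without hip cap control replicate 3 (0.73, adjusted p = 0.0977), metatarsal control replicate 1 (0.69, adjusted p = 0.107) or metatarsal replicate 4 at 50 MPa (1.13, adjusted p = 0.158), and with all 24 libraries (0.31, adjusted p = 0.687).

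The nidogens, which link laminin networks to collagen IV and perlecan, went opposite ways. Nid1 counted 23.9, 22.4 and 26.8 CPM in hip cap controls against 168, 193, 188 and 167 CPM in metatarsal controls. Over all pressures its highest hip cap level (60.6 CPM) was less than its lowest metatarsal level (147 CPM). The log2 fold changes were -2.83 ± 0.29, -2.20 ± 0.22 and -2.11 ± 0.30 (SE, adjusted p = 4.32e-07, 1.07e-07 and 3.10e-05, edgeR). Nid2 counted 119, 88.5 and 104 CPM in hip cap controls and 49.4, 47.2, 65.1 and 65.9 CPM in metatarsal controls. It was higher in hip caps by 1.01 ± 0.23 (adjusted p = 0.00193, edgeR) without pressure and by 0.59 ± 0.16 (adjusted p = 0.00509) at 5 MPa on the log2 scale, while at 50 MPa the value was 0.32 ± 0.23 (adjusted p = 0.376).

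In every hip cap library of the fit Nid2 had more counts than Nid1 (1.30 to 4.92 times), and in every metatarsal library fewer (0.245 to 0.396 times). The log2 ratio differed by 2.96 (exact permutation p = 1.17e-05, adjusted p = 1.555e-05), and by 2.83 at 5 MPa alone (exact permutation p = 0.0286). Corrected for transcript length the ratio was 1.63 to 6.15 in hip caps and 0.306 to 0.495 in metatarsals, so that the more abundant nidogen differs between the tissues on this scale also.

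Col4a1 and Col4a2 encode the chains of the collagen IV found in most basement membranes. They lie head to head on chromosome 8, with RefSeq starts on GRCm38.p6 at 11312826 on the minus strand for Col4a1 and at 11312805 on the plus strand for Col4a2, so that their first exons overlap by 22 bases. Col4a1 stood at 79.4, 68.9 and 134 CPM in hip cap controls, all below the metatarsal controls at 213, 263, 278 and 274 CPM. At 5 MPa the hip caps lay at 121, 104, 335 and 81.7 CPM and the metatarsals at 263, 422, 320 and 239 CPM, and hip cap replicate 3 alone reached the metatarsal range. The log2 fold changes were -1.50 ± 0.43 (SE, adjusted p = 0.0127, edgeR) without pressure, -0.95 ± 0.32 (adjusted p = 0.0237) at 5 MPa and -0.93 ± 0.45 (adjusted p = 0.172) at 50 MPa. Col4a2 ran from 83.9 to 265 CPM in hip caps and from 154 to 299 CPM in metatarsals. Its log2 fold changes of -0.71 ± 0.34, -0.59 ± 0.25 and -0.69 ± 0.36 did not pass (adjusted p = 0.127, 0.0685 and 0.196).

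The collagen IV calls turned on single libraries and on the method. Without hip cap replicate 3 at 5 MPa, Col4a2 passed at each pressure (-0.72, -0.96 and -0.73, adjusted p = 0.0150, 0.000180 and 0.0243, edgeR) and Col4a1 passed at 50 MPa also (-0.96, adjusted p = 0.00554). At 5 MPa Col4a1 itself came to -1.53 without that library. The call of Col4a1 without pressure was lost without metatarsal control replicate 1 (-1.44, adjusted p = 0.241), hip cap control replicate 3 (-1.53, adjusted p = 0.0562) or metatarsal replicate 4 at 50 MPa (-1.54, adjusted p = 0.0511). At 5 MPa it was lost without hip cap replicates 1, 2 or 4 (-0.77, -0.72 and -0.66, adjusted p = 0.0951, 0.102 and 0.0952) or metatarsal replicate 2 (-0.70, adjusted p = 0.114), and in the 8 libraries of 5 MPa fitted alone (-0.91, adjusted p = 0.130). With all 24 libraries or with no filter on low counts Col4a1 was lost without pressure (-0.79 and -1.45, adjusted p = 0.135 and 0.0579) and at 5 MPa (-0.95 and -0.90, adjusted p = 0.0687 and 0.0951). Col4a2 at 5 MPa passed with DESeq2 (-0.62, adjusted p = 0.0367), the strict filter (-0.68, adjusted p = 0.0248), a replicate block (-0.65, adjusted p = 0.0484), voom with sample weights (-0.84, adjusted p = 0.000720) and the GC trend removed (-0.63, adjusted p = 0.0189). Without pressure it passed with voom (-0.80, adjusted p = 0.0489) and with library type as the only batch term (-0.88, adjusted p = 0.0202).

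Hip cap replicate 3 at 5 MPa, with the highest Col4a1, Col4a2 and Nid1 of its group, carried the highest summed endothelial markers (283 CPM over 8 genes, against 90.2 CPM in the lowest library of the group), fibroblast and perichondrium markers (9377 against 1291 CPM) and macrophage markers (189 against 44.8 CPM), and the lowest chondrocyte markers of the hip caps in the fit (20904 CPM). Between tissues without pressure the endothelial sums overlapped, at 82.4 to 134.5 CPM in hip caps and 99.9 to 141 CPM in metatarsals, with 1 of 8 markers lower in hip caps and 7 not passing. Fibroblast markers were lower in hip caps for 6 of 7 and muscle markers for 8 of 8. Of mural markers 1 of 6 was higher and 2 were lower, no macrophage marker of 5 passed and 1 of the 3 Schwann markers tested was higher. The part of these cells in the levels of Col4a1, Col4a2, Nid1 and Col6a6 was not tested.

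The ratio of Col4a2 to Col4a1 counts was higher in hip caps by 0.49 on the log2 scale (exact permutation p = 1.17e-05, adjusted p = 1.555e-05). The libraries at 5 MPa alone gave 0.47 (exact permutation p = 0.0286). Over all pressures the ratio ran from 0.791 to 1.55 in hip caps and from 0.698 to 0.777 in metatarsals, without overlap. By transcript length the range was 0.811 to 1.59 in hip caps. The hip cap group means of this log2 ratio were 0.37 ± 0.24 (SD, n = 3) in controls, -0.01 ± 0.27 (n = 4) at 5 MPa and -0.26 ± 0.09 (n = 3) at 50 MPa, beside -0.43 ± 0.06, -0.48 ± 0.02 and -0.47 ± 0.06 (n = 4 each) in metatarsals. Those of Nid2 over Nid1 were 2.07 ± 0.20, 1.16 ± 0.56 and 0.71 ± 0.24 in hip caps. The hip cap control left out of the fit had -0.29 for Col4a2 over Col4a1 and 0.70 for Nid2 over Nid1, near the means at 50 MPa. The hip cap library at 50 MPa left out of the fit had -0.28 and 0.135. Run and library type also differ between the hip cap groups. The differences between pressures were not tested.

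**Figure D3:**
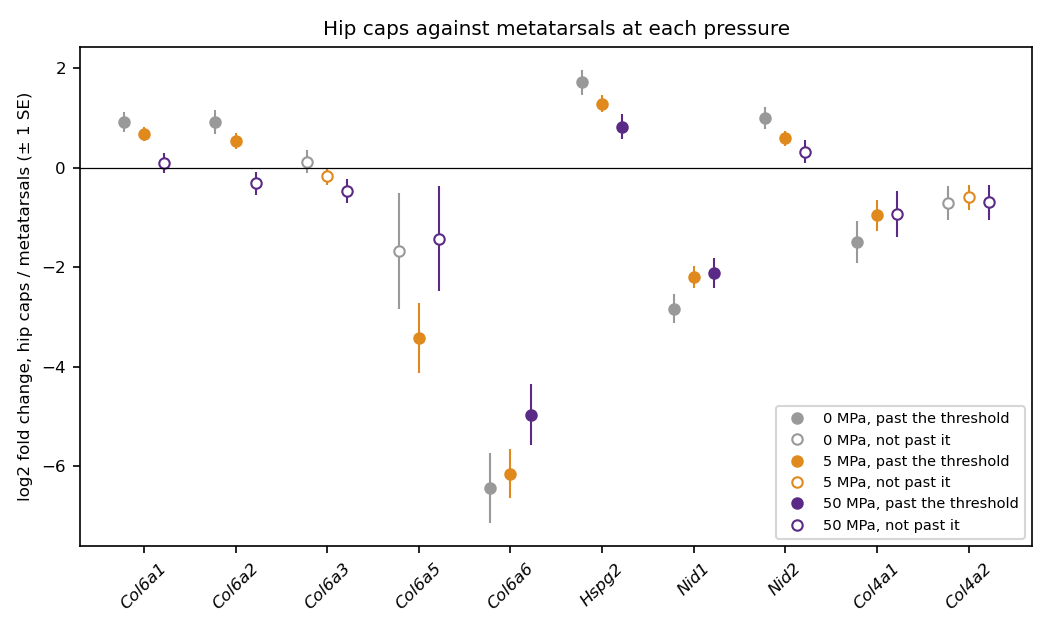
Log2 fold change of hip caps over metatarsals (vertical, bars of 1 SE) for each member (horizontal) at 0, 5 and 50 MPa, with filled points where the adjusted p is 0.05 or less. Hspg2 lies above 0 and Nid1 and Col6a6 below it at all 3 pressures, from 1.72 for Hspg2 to -6.44 for Col6a6 without pressure.

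These differences depend on how libraries are scaled. TMM factors, which correct for the composition of a library, were 0.440 to 1.15 in hip caps and 1.12 to 1.59 in metatarsals. With library sizes alone the median of all genes moved to -0.96, -0.70 and -0.90 at 0, 5 and 50 MPa. On that scale Col6a6 (-7.22, -6.82 and -5.54) and Nid1 (-3.75, -2.83 and -2.91) were again lower in hip caps at each pressure, but Col6a1 and Col6a2 without pressure came to 0.01 and 0.02 and Hspg2 to 0.80 (adjusted p = 0.993, 0.976 and 0.0589). Col6a2 and Nid2 turned to -0.08 and -0.02 at 5 MPa (adjusted p = 0.793 and 0.967) and Hspg2 to -0.13 at 50 MPa (adjusted p = 0.789). Further members passed as lower in hip caps on that scale. They were Col6a3 at 5 and 50 MPa (-0.78 and -1.32, adjusted p = 0.0252 and 0.0170), Col6a2 and Col4a1 at 50 MPa (-1.21 and -1.83, adjusted p = 0.0124 and 0.0126) and Col4a2 at all 3 pressures (-1.63, -1.25 and -1.59, adjusted p = 0.00222, 0.00153 and 0.00632). The ratios of chains given above have no such dependence.

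Genes linked to the members were counted from lists, to be read beside the 31.0% of all genes that passed without pressure, 38.1% at 5 MPa and 20.4% at 50 MPa. Of the 5 other chains of collagens IV and VI, 4 were higher in hip caps without pressure and 1 was lower. The chains of the specialised collagen IV networks were the higher ones, with log2 fold changes of 4.89 ± 0.47 for Col4a6, 3.89 ± 0.73 for Col4a4 and 3.13 ± 0.30 for Col4a5 (SE, adjusted p = 1.70e-07, 0.000363 and 1.47e-07, edgeR), and Col6a4, a further long chain of collagen VI, was lower at -4.87 ± 1.27 (adjusted p = 0.00554). The median of the list was 3.13, beside -0.08 over all genes, while the common chains Col4a1 and Col4a2 were at -1.50 and -0.71. Of 24 other basement membrane proteins 7 were higher and 11 lower in hip caps, with Ntn4, a netrin that binds laminin, at 5.25 and Lama3, a laminin chain of epithelia, at -5.53. Receptors gave 4 higher and 1 lower of 14, a share near that of all genes, among them Cspg4 (NG2), which binds collagen VI, at 1.96 ± 0.24 (adjusted p = 3.19e-06), and Antxr1 at -1.48 ± 0.20 (adjusted p = 9.23e-06).

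Of the 11 partners in the chondrocyte pericellular matrix, 10 were higher in hip caps without pressure and 1 was lower. Comp, Matn3 and Acan, which encode cartilage oligomeric matrix protein, matrilin-3 and aggrecan, had log2 fold changes of 5.86, 5.12 and 4.81, and Matn4 was lower at -1.55 (adjusted p = 1.60e-08, 3.19e-06, 1.11e-06 and 0.000322, edgeR). The median of this list, 3.46, is to be set beside 0.92 and 0.93 for Col6a1 and Col6a2 and 1.72 for Hspg2. Genes of collagen chain modification, folding and export gave 9 higher and 2 lower of 16, led by Colgalt2, a galactosyltransferase of collagen, at 4.27 ± 0.49 (adjusted p = 3.50e-06). At 5 MPa the partners gave again 10 higher and 1 lower, and at 50 MPa 9 higher and 1 lower. The other collagen chains gave 4 higher and 1 lower at 5 MPa and 3 higher and 1 lower at 50 MPa, the receptors 7 higher and 2 lower at both, the basement membrane proteins 6 higher and 11 lower, then 4 higher and 10 lower, and the modification genes 10 higher and 3 lower, then 9 higher and 2 lower.

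The second question was what pressure did within each tissue. In hip caps at 50 MPa against control 2 of 10 members passed, both lower, where 5.50% of all genes did. They were Col6a2, with a log2 fold change of -1.07 ± 0.24 (SE, adjusted p = 0.0188, edgeR), and Hspg2, at -1.08 ± 0.25 (adjusted p = 0.0195). Hspg2 fell from 2624, 1676 and 2544 CPM to 1272, 1201 and 1442 CPM, without overlap. For Col6a2 the control level of 512 CPM in replicate 2 lay below all 3 libraries at 50 MPa (627, 613 and 554 CPM), so the groups overlapped, while the other controls (1041 and 1137 CPM) were above them. The median of the members was -0.31, beside 0.02 over all genes tested.

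Among the members that did not pass, Col6a1 was at -0.63 ± 0.21 (SE, adjusted p = 0.0723, edgeR), Nid2 at -0.72 ± 0.23 (adjusted p = 0.0674) and Col6a3 at -0.62 ± 0.25 (adjusted p = 0.133). The levels of Nid2 at 50 MPa (71.0, 78.0 and 45.2 CPM) did not overlap the controls. Nid1 was at 0.62 ± 0.32 (adjusted p = 0.255), with each of its libraries at 50 MPa (36.8, 56.5 and 27.6 CPM) above each control, and Col4a1 at 0.55 ± 0.47 (adjusted p = 0.513), likewise without overlap. The share of all genes that separate in this way is not given, so no weight is placed on it. These CPM are also not corrected for library type. Col4a2 (-0.01), Col6a5 (0.06) and Col6a6 (1.40 ± 0.83) completed the list. DESeq2 on the same design called 4 members, adding Col6a1 (adjusted p = 0.0139) and Nid2 (adjusted p = 0.0328). Over the whole table it called 2455 genes, against 1170 in edgeR. In edgeR both also passed without hip cap control replicate 2 (-0.69 and -0.75, adjusted p = 0.0201 and 0.0370) or without hip cap replicate 3 at 5 MPa (-0.67 and -0.75, adjusted p = 0.0378 and 0.0493), and Col6a1 passed without hip cap control replicate 1 (-0.54, adjusted p = 0.0452).

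The calls of Col6a2 and Hspg2 rested on hip cap control replicate 3, and the size of both changes moved from fit to fit. All 3 hip caps at 50 MPa in the fit are unstranded libraries of the first run, and replicate 3 is the only unstranded control, so in this contrast it takes a weight of -0.76 and each of the other controls -0.12. Without it Col6a2 was at -1.51 ± 0.43 (SE, adjusted p = 0.194, edgeR) and Hspg2 at -1.42 ± 0.45 (adjusted p = 0.230), and 1 gene of the whole table passed. In the first run alone, with no term for library type, the values were -0.58 (adjusted p = 0.535) and -0.80 (adjusted p = 0.396). With all 24 libraries they were -1.12 and -0.98 (adjusted p = 0.155 and 0.216), with hip caps fitted alone -0.90 and -0.94 (adjusted p = 0.417 and 0.412), and with library sizes alone -0.82 and -0.88 (adjusted p = 0.261 and 0.204). Col6a2 was lost as well with no batch terms (-0.58, adjusted p = 0.135) and with run as the only one (-0.58, adjusted p = 0.141), where Hspg2 was kept (-0.81 in both, adjusted p = 0.0289 and 0.0341) and Nid2 passed (-0.67 in both, adjusted p = 0.0358 and 0.0382). The call of Col6a2 thus depends on the term for library type.

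The transcripts of the members are long and rich in G and C. Their lengths run from 4100 to 14187 bases, against a median of 2776 over tested genes, and their GC content from 49.7% for Col6a5 to 60.9% for Hspg2, the latter above 97.2% of tested genes with a transcript. The study reports RNA integrity values below the minimum it calls ideal and proposes that its RNA was partly degraded. How far this altered the levels of such long transcripts was not tested. Once the trend of each library with GC content was taken out, Col6a2 at 50 MPa in hip caps stood at -0.78 (adjusted p = 0.0697, edgeR) and Hspg2 at -0.70 (adjusted p = 0.133), and 122 genes passed in place of 1170. The summed chondrocyte markers were 47337 to 75389 CPM in the hip cap controls and 30958 to 35922 CPM at 50 MPa, with 1 of 8 markers lower and 7 not passing. Macrophage markers ran from 24.2 to 40.3 CPM in controls and from 72.5 to 91.7 CPM at 50 MPa (1 of 5 higher), and muscle markers from 8.97 to 15.7 CPM and from 27.6 to 43.8 CPM (1 of 8 higher). The part of these in the result was not tested.

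**Figure D4:**
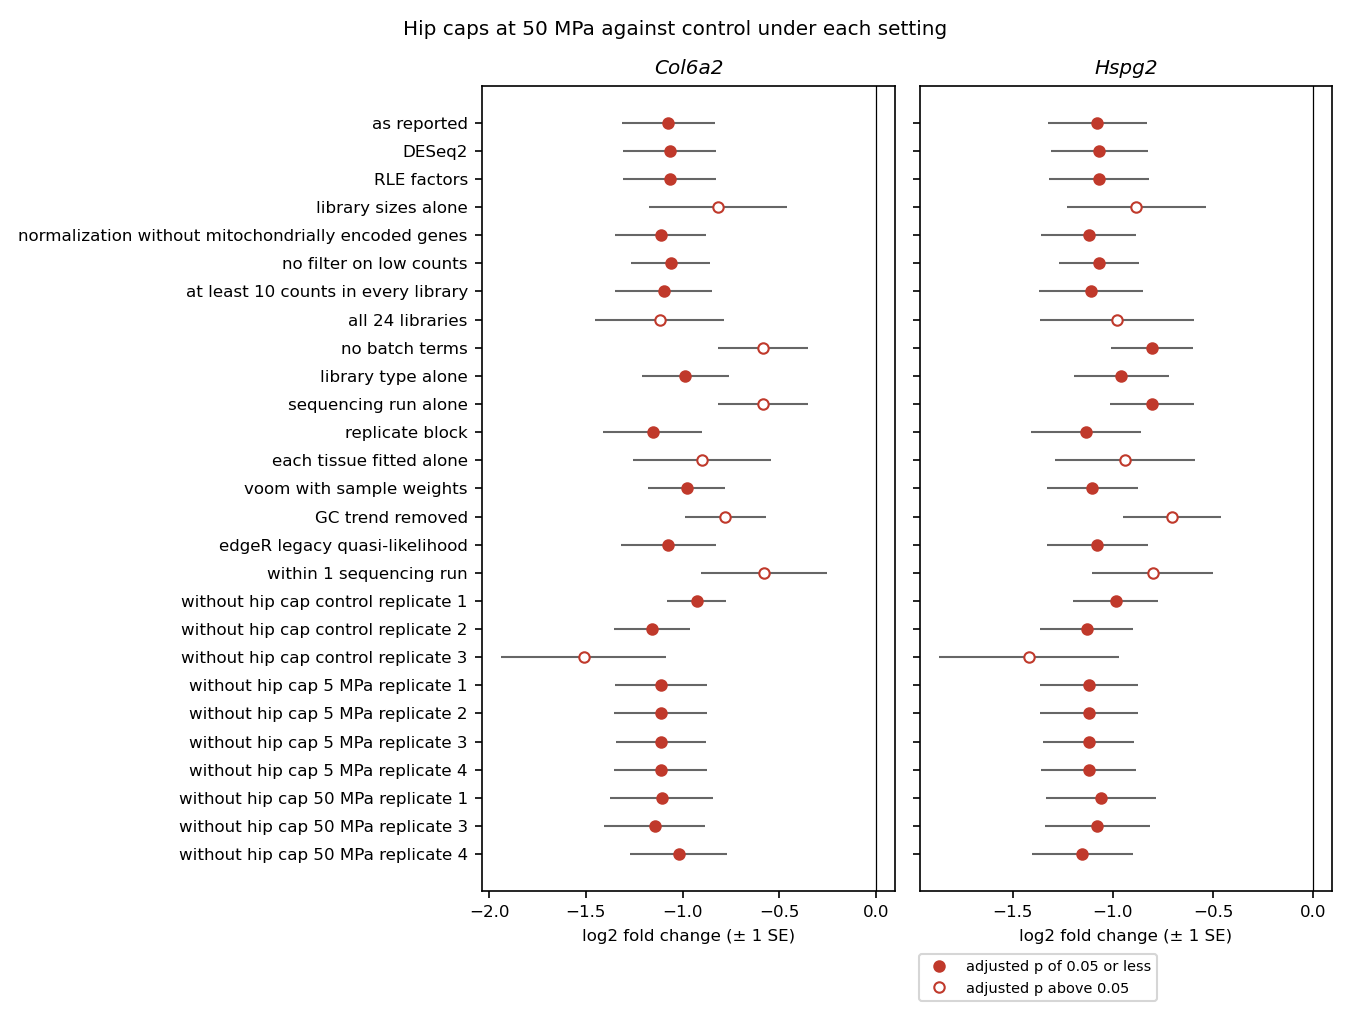
Log2 fold change of Col6a2 and Hspg2 in hip caps at 50 MPa against control (horizontal, bars of 1 SE) under each way of fitting (vertical), with filled points where the adjusted p is 0.05 or less. Fits that left out a metatarsal library are not drawn. Every value drawn lies below 0, from -1.51 to -0.58 for Col6a2, and the open points include the fit without hip cap control replicate 3.

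In hip caps at 5 MPa against control no member passed in edgeR or in DESeq2, where 0.0235% of all genes did in edgeR, and 1 member (Hspg2, -0.67 ± 0.28, adjusted p = 0.256) had an unadjusted p under 0.05. This contrast shares its controls with that at 50 MPa. All hip caps at 5 MPa belong to the second run and all controls of the fit to the first, so the run is corrected from metatarsals alone. Hip caps at 50 MPa against 5 MPa gave no member either in edgeR or DESeq2 (0% of all genes in edgeR, 1073 of them under an unadjusted p of 0.05), with Col6a2 alone under an unadjusted p of 0.05 (-0.71 ± 0.28, adjusted p = 0.962).

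In metatarsals no member passed at 5 MPa against control, at 50 MPa against control or at 50 against 5 MPa, where 0%, 0% and 0% of all genes did. No member reached an unadjusted p of 0.05, where 733, 872 and 185 genes did, and DESeq2 called no member. The precision was greater than in hip caps. At 50 MPa against control the intervals of 2 SE were -0.11 to 0.48 for Col6a1, -0.18 to 0.51 for Col6a2, -0.38 to 0.33 for Col6a3 and -0.55 to 0.17 for Hspg2, so that a log2 fold change of 1 in either direction falls outside them. For Col6a5 the interval ran from -1.45 to 1.08 and no such statement can be made.

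**Figure D5:**
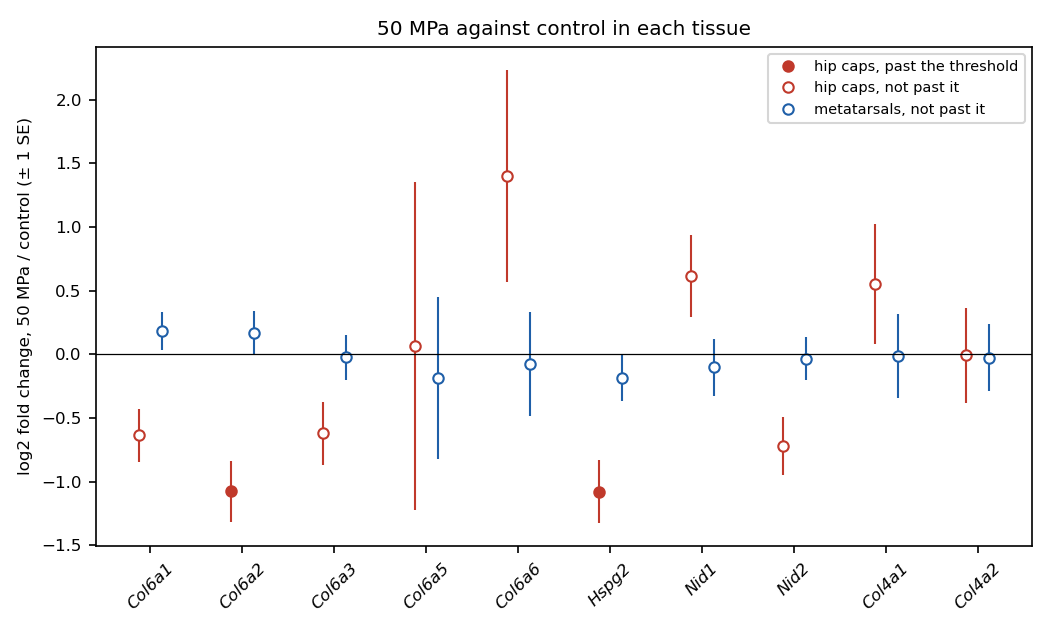
Log2 fold change of 50 MPa over control (vertical, bars of 1 SE) for each member (horizontal) in hip caps (red) and metatarsals (blue), with filled points where the adjusted p is 0.05 or less. Col6a2 and Hspg2 in hip caps are the filled points, at -1.07 and -1.08, and the metatarsal values run from -0.19 to 0.18.

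Whether pressure acted differently in the 2 tissues was tested by the interaction. At 50 MPa 1 member passed, against 0.442% of all genes. Col6a2 changed by -1.24 ± 0.27 more in hip caps than in metatarsals on the log2 scale (SE, adjusted p = 0.0476, edgeR), the metatarsal value being 0.17 ± 0.17. Col6a1 was next at -0.82 ± 0.23 (adjusted p = 0.0783), followed by Hspg2 at -0.89 ± 0.28 (adjusted p = 0.100) and Nid2 at -0.68 ± 0.26 (adjusted p = 0.154). DESeq2 called 3 members, Col6a2, Col6a1 and Hspg2, and 1349 genes over the whole table, against 94 in edgeR. In edgeR Col6a1 passed without hip cap control replicate 2 (-0.91, adjusted p = 0.0117) or hip cap replicate 3 at 5 MPa (-0.85, adjusted p = 0.0430), and Hspg2 without hip cap control replicate 2 (-0.98, adjusted p = 0.0295). The call of Col6a2 was lost in 17 of the 22 fits that each left out 1 library, and was kept without hip cap control replicates 1 or 2, hip cap replicates 3 or 4 at 5 MPa or hip cap replicate 4 at 50 MPa. The highest adjusted p of these fits was 0.179, without metatarsal control replicate 1 (-1.04). At 5 MPa the interaction gave no member in edgeR or DESeq2, none under an unadjusted p of 0.05, and 0.0188% of all genes.

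Metatarsal replicate 4 at 50 MPa, the only unstranded metatarsal library, had the highest Col6a1 and Col6a2 of the metatarsals (799 and 814 CPM, against 560.4 to 597 and 490.2 to 506 CPM in its group) and enters the interaction with a weight of -0.40. Without it the value of Col6a2 was -1.04 (adjusted p = 0.177, edgeR). It and hip cap control replicate 3 were the only libraries of the fit with at least as many Col6a2 as Col6a1 counts (1.02 and 1.01 times). The unstranded hip caps at 50 MPa had 0.718 to 0.780 times as many. The part of the library type in these levels was not tested beyond the terms of the fit.

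Genes of the linked lists that passed in hip caps at 50 MPa against control, where 5.50% of all genes did, were all lower. They were 3 of 24 basement membrane proteins (Lama2 at -1.19 ± 0.30, Lamb2 at -0.96 ± 0.21 and Smoc1 at -0.71 ± 0.21), 1 of 5 other collagen chains (Col4a5 at -0.95 ± 0.27), 1 of 14 receptors (Cspg4 at -1.09 ± 0.23), 1 of 11 pericellular partners (Comp at -1.35 ± 0.38) and 2 of 16 genes of chain modification and export (Serpinh1, the collagen chaperone, at -1.04 ± 0.21, and P3h1, a prolyl hydroxylase, at -0.82 ± 0.21). Their adjusted p ran from 0.0146 for Serpinh1 to 0.0494 for Smoc1 (edgeR). The list medians were -0.35, -0.58, 0.31, -0.57 and -0.05 in that order, beside 0.02 over all genes. Counts of 1 of 14 and 1 of 11 are near that background. Over all genes tested 1 passed without hip cap control replicate 3, 2 with all 24 libraries and 0 with each tissue alone or within 1 run, so at most that many of these calls can have been kept there. Serpinh1 was also the gene of these lists that passed the interaction at 50 MPa (-1.09 ± 0.24, adjusted p = 0.0476). In the metatarsals and in hip caps at 5 MPa none of the listed genes passed.

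Within groups the members formed pairs. After group means were taken out of log2 CPM, Pearson's r over the 22 libraries, which share depth and scaling, was 0.97 between Col6a1 and Col6a2 and 0.96 between Col4a1 and Col4a2. Across the 8605 genes compared, Col6a2 was the gene most like Col6a1, and Col4a2 the gene most like Col4a1. The next most like Col6a1 were Unc45a (0.91), Tnks1bp1 (0.91), Bcr (0.90) and Lrp1 (0.89). The next most like Col4a1 were Col18a1 (0.96) and Lamb1 (0.96), a collagen and a laminin chain of basement membranes, with Csf1 (0.95) and Syngr2 (0.95). Col6a3 correlated with Col6a2 at 0.78 and with Col6a1 at 0.75, Nid1 with Col4a1 at 0.79, and Hspg2 with Nid1 at -0.02. These values are descriptions, without a test.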

How the data were processed

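The authors trimmed reads with Trim Galore 0.6.5, quantified them with kallisto and summed transcripts to genes with tximport, and they deposited 1 table of estimated counts per gene (the submitters' notes name GRCm39). Annotation here is GENCODE M21 on GRCm38, used for names, lengths and GC content, and promoter windows are RefSeq on GRCm38.p6. Estimated counts were rounded, filtered with filterByExpr and scaled by TMM. edgeR 4.0.16 (R 4.3.3) fitted all 6 groups with terms for sequencing run and library type by its robust quasi-likelihood method, with Benjamini-Hochberg adjustment within each comparison and a threshold of 0.05. The edgeR fit and the procedure of the stratified permutation were tried on simulated data without batch effects, and the other methods were not. The run was read from a figure of the study, and the kit counts in its methods differ from the labels, so both batch terms are uncertain. Intervals of single values are 2 SE wide on each side. Chain ratios (pseudocount 1) were tested by exact permutation, without batch terms. Metatarsal samples are pools, and where the labels name no separate litters p-values measure the spread between these samples only. DESeq2 1.42.0 and limma 3.58.1 served as alternatives, and a legacy edgeR method was added after the data were seen. All 10 members were named by rule, and from each linked list up to 3 called genes in each direction. Members, lists and markers were chosen with earlier results of these data known. The exact binomial intervals of pooled counts and the floors cover counting error only, while the intervals of 2 SE include the spread between libraries estimated by the fit.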

Additional observations from a re-analysis of the deposited data

Results flagged for a closer look

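Each of the 10 members was looked at in every group of 4 libraries in the fit (40 groups in all) for a highest or lowest library far from the rest, a criterion that chance alone meets in about 1 in 20 groups. It picked out 6 values. In metatarsal replicate 4 at 50 MPa, the only unstranded metatarsal library, Col6a1 stood at 799 CPM against 560.4, 579 and 597 CPM in the others of its group, and Col6a2 at 814 CPM against 490.2, 494 and 506 CPM. In hip cap replicate 3 at 5 MPa, which has the highest endothelial, fibroblast and macrophage markers of its group, Col4a1 stood at 335 CPM against 81.7, 104 and 121 CPM, and Col4a2 at 265 CPM against 102, 103 and 120.0 CPM. Col6a6 was high in metatarsal replicate 2 at 5 MPa (38.55 CPM against 24.96, 27.1 and 27.2 CPM), and Nid2 was low in metatarsal replicate 1 at 5 MPa (50.4 CPM against 58.2, 58.4 and 59.0 CPM). A difference between tissues in the response to 50 MPa was picked out for Col6a2, with an interaction of -1.24 on the log2 scale (adjusted p = 0.0476, edgeR quasi-likelihood test), which 17 of the 22 fits without 1 library did not keep past the threshold.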

How the results depend on the processing

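There were 507 alternative values of counts of members called and of chain ratios. Of these, 454 were equal or lay within 1.5 times (counts) or kept their side of the threshold (ratios). Counts that stayed at 0 are among them. For single members 3930 of 4038 kept their side of the threshold. Direction was compared only where the reported or the alternative fit made a call, so most values that never passed were not checked for it. Between tissues the count of members called moved from 7 to 4 without pressure and from 3 to 6 at 50 MPa with library sizes alone, where Col6a2 (-0.082) and Nid2 (-0.016) at 5 MPa and Hspg2 (-0.13) at 50 MPa reversed. With all 24 libraries it was 3 without pressure and 4 at 5 MPa, and with at least 10 counts in every library 1 at 50 MPa. For hip caps at 50 MPa against control it was 4 with DESeq2 and with the strict filter, and 0 with library sizes alone, all 24 libraries, each tissue alone, the GC trend removed and 1 run alone. For the interaction at 50 MPa it was 3 with DESeq2 and 0 with library sizes alone, all 24 libraries, no batch terms, library type alone, run alone, the GC trend removed and the legacy method. The cause was not tested. Genes called over the whole table also moved by over 1.5 times. Between tissues they were 8105 at 5 MPa (5108 with the strict filter, 5027 with all 24 libraries) and 4352 at 50 MPa (7119 with library sizes alone, 7923 with no batch terms, 2040 with all 24 libraries). For hip caps at 50 MPa against control they were 1170, with 2455 under DESeq2, 1762 with the strict filter, 563 with no filter, 554 with library type alone, 122 with the GC trend removed, 58 with library sizes alone, 2 with all 24 libraries and 0 with each tissue alone or within 1 run. For hip caps at 5 MPa against control they were 5, with 577 under DESeq2, 2422 with no batch terms and 1359 with library type alone, and for hip caps at 50 against 5 MPa 0, with 40 under DESeq2 and 1040 with no batch terms. For the interaction they were 4 at 5 MPa (0 to 128 over the alternatives other than leaving out 1 library) and 94 at 50 MPa (1349 with DESeq2, 592 with the strict filter, 0 with library sizes alone or all 24 libraries). In metatarsals, at 0 in each comparison, the alternatives gave 0 to 14.

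Leaving out 1 library at a time gave 3 to 8 members without pressure (3 without metatarsal control replicate 1), 7 to 9 at 5 MPa and 1 to 5 at 50 MPa (1 without metatarsal replicate 4 at 50 MPa, 5 without hip cap replicate 3 at 5 MPa). The whole table moved too. Without metatarsal control replicate 1 the genes called at 0 MPa went from 6601 to 2573. At 50 MPa they went from 4352 to 1179 without metatarsal replicate 4, and to 4815 without hip cap replicate 3 at 5 MPa. Leaving out 1 library gave 0 to 4 members for hip caps at 50 MPa against control (0 without hip cap control replicate 3, 4 without hip cap control replicate 2 or hip cap replicate 3 at 5 MPa) and 0 to 3 for the interaction at 50 MPa (3 without hip cap control replicate 2). In the same 3 fits the genes called at 50 MPa against control went from 1170 to 1, 2596 and 1869. For the interaction they went from 94 to 1749 without hip cap control replicate 2. The log2 ratios ranged from -0.153 to -0.075 (Col6a2/Col6a1), -0.80 to -0.69 (Col6a3/Col6a1), 0.45 to 0.53 (Col4a2/Col4a1) and 2.91 to 3.05 (Nid2/Nid1). Hip caps come from separate mice. The deviations of libraries of equal number in different groups had r from -0.37 to 0.35 (50 pairs, median 0.01). Other pairs had r from -1 to 1 (151 pairs, median -0.01). Both ends of that range are fixed by the batch terms. The terms tie the deviations of hip cap control replicate 3, metatarsal control replicate 1 and metatarsal replicate 4 at 50 MPa to one another. The check pooled both tissues, so a pairing by number among metatarsals was not tested apart. No pairing was used in the fit reported. A replicate block gave 7, 9 and 3 members between tissues at 0, 5 and 50 MPa, 2 for hip caps at 50 MPa against control, 1 for the interaction at 50 MPa and 0 elsewhere. Over the whole table that block called 6298, 7964 and 4142 genes between tissues, 1532 for hip caps at 50 MPa and 247 for the interaction at 50 MPa. Comparisons within 1 run gave no value where a group has under 2 libraries in that run. Single libraries held 0 to 3 counts of Col6a5 in hip caps, which limits what can be said of that gene.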
